A study of Homo sapiens with 6 samples.

Results

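The 46 genes described here are 32 interferon-stimulated genes and 14 genes of antigen presentation by MHC class I, out of 35052 genes to which the deposited transcripts could be assigned. They were chosen by name, and each gene's level is the sum of the estimated reads of its transcripts. All 46 names were found in the gene table, and 36 of them (26 interferon and 10 class I genes) passed a filter on low counts, after which 12954 genes were tested in all. The samples are 6 libraries of EoL-1, a human leukaemia cell line of the eosinophilic lineage, edited with CRISPR/Cas9. The group called JUN knockout has 3 libraries and that called ATF3/JUN double knockout has 3, so the loss of JUN is common to all 6, and no unedited cells were analysed here. JUN and ATF3 are transcription factors that can pair with each other on DNA. Which alleles the editing left is not stated in the labels. The names of the deposited files give each library a clone code, and each code occurs once in each genotype: replicate 1 of both genotypes carries 4A, replicate 2 carries 4C and replicate 3 carries 5Z. The labels give the replicate number alone and say neither whether a code is 1 single-cell clone nor whether the libraries were separate cultures, and a p-value here therefore covers no more than the spread among these libraries.

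Type I interferons bind a surface receptor whose kinases, JAK1 and TYK2, activate a complex containing STAT2 and IRF9, which enters the nucleus and switches on antiviral genes through a promoter element called the ISRE. Interferon gamma acts through a different receptor and a related element called GAS, and induces IRF1 and many genes of class I presentation. Class I molecules, made of a heavy chain and B2M, display peptides that are cut by the immunoproteasome, carried by TAP1 and TAP2, trimmed by ERAP1 and ERAP2 and loaded with the help of TAPBP, and NLRC5 is a transcriptional activator of these genes. Myeloid cells often carry a low constant level of interferon-stimulated genes without any added interferon.

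The libraries held 26146998 to 29567970 estimated reads. JUN transcripts were at 13.2 to 27.2 CPM (counts scaled to a common library size) in the JUN knockout and 13.8 to 25.7 CPM in the double knockout, and ATF3 was at 8.89 to 20.2 CPM and 7.63 to 13.1 CPM, so both RNAs overlapped between genotypes (ATF3 log2 difference -0.48, edgeR adjusted p = 0.93). An edit that disables a protein need not lower its RNA. Of 11 eosinophil markers, 5 (EPX, PRG3, CLC, IL5RA and GATA1) had 0 reads in every library, while the ribonucleases RNASE2 and RNASE3 gave nearly all of the summed level, which was 36.2 to 111 CPM in the JUN knockout and 62.8 to 105 CPM in the double knockout. These 11 genes were listed as markers of the eosinophil lineage, and the sample titles name the EoL-1 line without a stage of maturity.

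Promoter sequences are shown first for 4 members. DDX60 and XAF1 were lower in both 5Z libraries than in both 4A libraries, and TAPBP differed most between clone codes. BST2 was highest in 5Z but did not pass the edgeR test on all 6 libraries. The sequences come from the RefSeq promoter table for GRCh38.p14, each on the strand of its gene. They run from 250 bases before to 50 bases after the annotated start. Capitals mark every match to an ISRE-like pattern (GAAA, any 2 bases, then GAAA again) or a GAS-like pattern (TTC, any 3 bases, then GAA), searched on both strands, and overlapping matches run together.
DDX60, chr4:168318703-168319002, minus strand: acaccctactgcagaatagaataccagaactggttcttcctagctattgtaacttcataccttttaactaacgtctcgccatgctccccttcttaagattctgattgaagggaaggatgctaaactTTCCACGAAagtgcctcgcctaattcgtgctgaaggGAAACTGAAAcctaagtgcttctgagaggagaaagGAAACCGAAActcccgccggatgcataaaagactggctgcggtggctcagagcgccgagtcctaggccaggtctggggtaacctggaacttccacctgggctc
XAF1, chr17:6755796-6756095, plus strand: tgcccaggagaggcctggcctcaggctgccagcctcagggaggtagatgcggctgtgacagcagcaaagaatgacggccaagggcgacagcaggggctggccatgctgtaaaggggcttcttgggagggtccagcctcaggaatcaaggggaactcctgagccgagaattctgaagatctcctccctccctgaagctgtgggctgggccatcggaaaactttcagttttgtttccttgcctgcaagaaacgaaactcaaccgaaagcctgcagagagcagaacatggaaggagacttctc
BST2, chr19:17405581-17405880, minus strand: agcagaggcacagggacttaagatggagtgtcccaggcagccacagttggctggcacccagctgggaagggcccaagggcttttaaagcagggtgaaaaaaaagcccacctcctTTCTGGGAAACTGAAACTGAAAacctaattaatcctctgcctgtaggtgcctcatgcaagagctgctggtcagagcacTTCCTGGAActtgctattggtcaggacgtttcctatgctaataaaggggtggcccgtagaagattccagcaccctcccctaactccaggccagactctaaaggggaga
TAPBP, chr6:33314029-33314328, minus strand: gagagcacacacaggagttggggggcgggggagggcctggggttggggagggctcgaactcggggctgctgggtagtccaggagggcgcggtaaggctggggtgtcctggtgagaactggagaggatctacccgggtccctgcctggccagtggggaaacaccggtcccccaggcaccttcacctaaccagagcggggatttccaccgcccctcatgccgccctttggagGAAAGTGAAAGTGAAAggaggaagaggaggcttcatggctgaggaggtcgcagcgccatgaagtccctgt
The DDX60 window held 2 ISRE-like matches and 1 GAS-like match, the BST2 window held 2 of each, with the ISRE-like pair overlapping each other and 1 of the GAS-like matches, and the TAPBP window held 2 overlapping ISRE-like matches close to the start. The XAF1 window held neither pattern. The window of CMPK2, which was also called lower in 5Z but is not shown, held neither pattern as well. Over all members with a promoter in the table, 15 of 26 interferon genes and 7 of 12 class I genes held an ISRE-like match, against 3.65% of 27305 promoters of the same length. A GAS-like match stood in 7 of the 26 and 0 of the 12, against 7.88% of all promoters. A match is only a run of letters and not a shown binding site.

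Most members were expressed at low levels. On the length-corrected TPM scale, B2M, the light chain of every class I molecule, had the highest mean over the 6 libraries at 1447 TPM. Much of this lay on B2M-203, a transcript of 407 bases not annotated as coding, at 731 to 906 TPM by library. The coding transcripts B2M-202 and B2M-208 had 97.5 to 137 TPM and 1.03 to 2.26 TPM. XAF1, a pro-apoptotic protein induced by interferon, followed at 141 TPM and BST2, also called tetherin, which holds budding virus at the cell surface, at 137 TPM. PSMB10, an immunoproteasome subunit, was at 73.0 TPM and IRF1, a transcription factor induced by interferon gamma, at 31.9 TPM. ISG15, the ubiquitin-like protein often used as a marker of an active response, was at 7.12 TPM, between 6.54 and 7.39 TPM in all libraries.

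Of the 32 interferon genes, 6 had too few reads to be tested. IFIT1, which binds viral RNA lacking a host cap, had 5 to 20 reads per library. OAS2, OAS3 and OASL, of the family whose enzymes activate RNase L, had 1 to 18 reads, and IFI44L had 6 to 16. IRF7, the factor that amplifies type I interferon, had 0 to 15 reads. Of the interferons themselves, only IFNB1, IFNG, IFNK and IFNE were looked up. IFNB1 had 0 to 3 reads, and IFNG, IFNK and IFNE had 0 in every library. Their receptors were present, with 1025 to 1184 reads for IFNAR1 and 2748 to 3299 for IFNGR1.

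Of the 14 class I members, 4 had too few reads to be tested, and all 4 lie in the MHC region of chromosome 6. The heavy chain genes HLA-E and HLA-F had 0 reads in all 6 libraries. An observed count of 0 still allows an expected count of up to 3 reads in a library. HLA-C had 7 reads in JUN knockout replicate 3, 21 in double knockout replicate 1 and 0 elsewhere, and TAP2, a subunit of the peptide transporter, had 9 reads in JUN knockout replicate 3 and 0 elsewhere. The reads that HLA-B did receive (240 to 381 per library) all lay on transcripts annotated as retained introns, with 0.0% on coding transcripts. The same held for PSMB8, an immunoproteasome subunit, and TAP1 had 2.12% of its reads on a coding transcript. Transcripts outside the annotation used, 10429 of 177456, carried 3.58% to 3.71% of the reads, and whether they include alternative copies of the MHC genes was not tested. Low values of HLA-B, HLA-C, HLA-E, HLA-F, TAP1, TAP2 and PSMB8 are therefore not read as low expression here.

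Between clone codes 5Z and 4A, 4 of the 36 tested members passed the test, all lower in 5Z: DDX60, CMPK2, XAF1 and TAPBP. Of the other 32, 27 had log2 differences below 0 and 5 above 0 (BST2, IFI6, ISG20, PSMB10 and B2M), none of them past the threshold. In this comparison 5.96% of all genes tested passed, 3.8% as lower and 2.16% as higher in 5Z. The median log2 difference, 5Z minus 4A, was -0.40 over the 26 interferon genes, of which 23 were below 0, and -0.24 over the 10 class I genes, of which 8 were below 0. Over all genes the median was -0.0020 and 50.3% were below 0. Both 5Z libraries lay below both 4A libraries for 18 of the 26 interferon genes and 7 of the 10 class I genes, against 28.6% of all genes. These calls come from the quasi-likelihood F test of edgeR, with genotype as a further term and Benjamini-Hochberg adjustment over all genes at 0.05, with 2 libraries for each code. In bulk libraries such as these, fewer cells of a kind and less RNA per cell cannot be told apart.

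Between 5Z and 4A the median was below 0 in each genotype. Over the interferon genes it was -0.46 within the JUN knockout, with 20 of 26 below 0, and -0.45 within the double knockout, with 22 of 26 below 0. Over the class I genes it was -0.16 and -0.26, with 8 and 9 of 10 below 0. The class I genes on chromosome 6 had a median of -0.50 over 5 tested and those on other chromosomes -0.15 over 5. Of the 5 on chromosome 6, HLA-B, TAP1 and PSMB8 had 0.0%, 2.12% and 0.0% of their reads on coding transcripts. PSMB9 had 14 to 31 reads a library, and the TAPBP difference sat in 1 transcript. These genes are also part of the class I medians and counts over 10 genes, which carry the same limit. Against 4C, the 5Z libraries were lower for 22 of 26 interferon genes (median -0.27) and 10 of 10 class I genes (median -0.25), where 49.9% of all genes were lower. The class I median there was -0.019 within the JUN knockout, with 5 of 10 below 0, and -0.34 within the double knockout, with 10 of 10 below 0, and it ran from -0.37 to -0.041 with 1 library left out. The 4C libraries were lower than those of 4A for 18 of 26 interferon genes (median -0.082) and 6 of 10 class I genes (median -0.023), where 49.2% of all genes were lower. Within the JUN knockout these medians were -0.31 and -0.12, and within the double knockout -0.058 and 0.089, so the class I direction differed between genotypes. With 1 library left out, the interferon median ran from -0.25 to -0.090 and the class I median from -0.12 to 0.12.

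**Figure D1:**
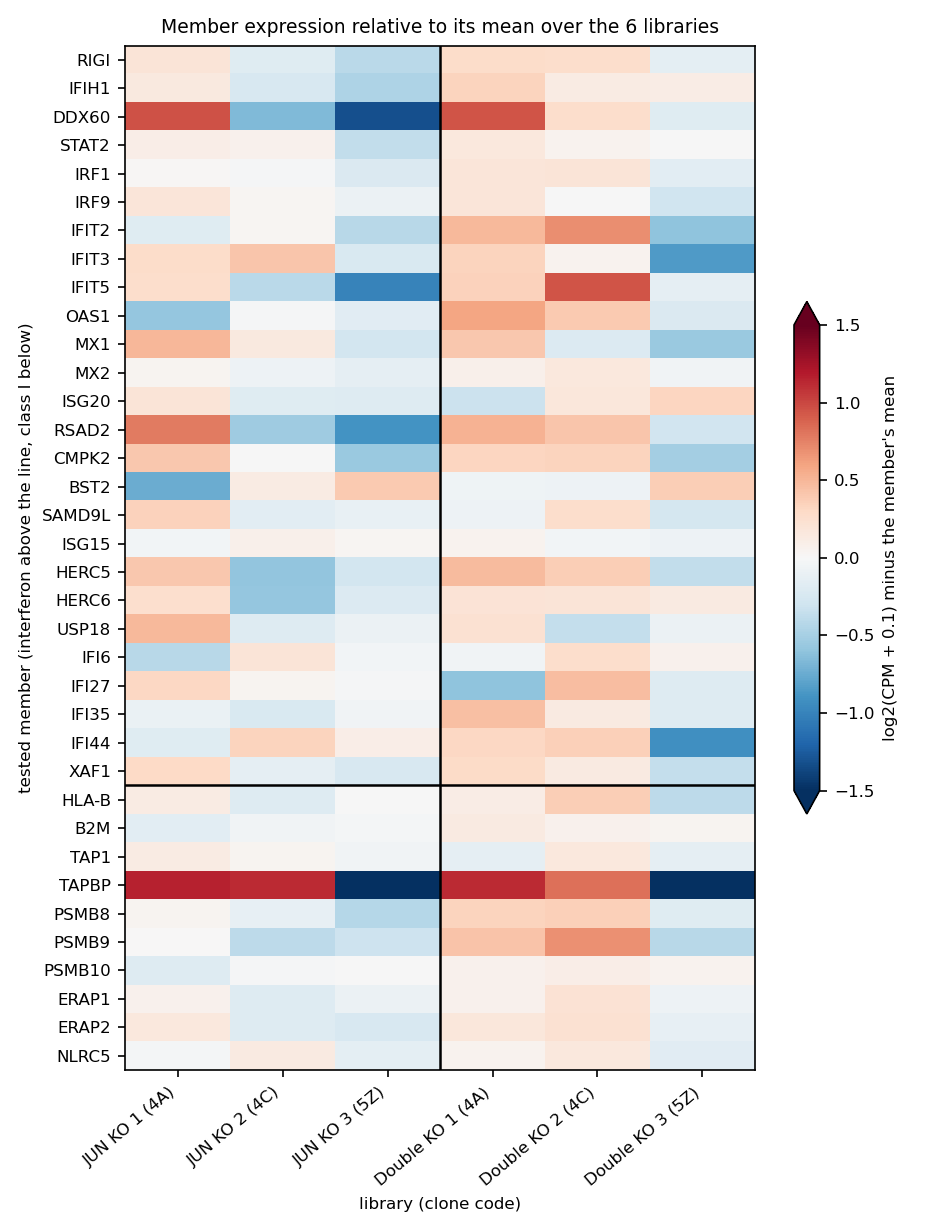
Relative expression of the 36 tested members (vertical axis, interferon genes above the line and class I genes below) in the 6 libraries (horizontal axis). Colour is log2(CPM + 0.1) minus the member's mean over the libraries. The 5Z columns are blue for most members, TAPBP and BST2 differ from the rest in opposite directions, and several members are also low in JUN knockout replicate 2.

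Among the RNA sensors, DDX60, a helicase that assists RIG-I-like receptors, had the steepest difference. DDX60 stood at 5.62, 1.76 and 1.08 CPM in JUN knockout replicates 1, 2 and 3 and at 5.55, 3.45 and 2.51 CPM in the double knockout replicates. Both 4A libraries lay above all others, and the 4C and 5Z libraries overlapped. It fell by 1.75 on the log2 scale in 5Z against 4A (SE 0.34, adjusted p = 0.034, edgeR). RIGI, the sensor of short viral RNA with a free triphosphate end, was at 28.6, 22.1 and 18.9 CPM in the JUN knockout and 30.5, 30.1 and 22.7 CPM in the double knockout. Its 5Z libraries overlapped the 4C libraries and lay below the 4A libraries, with a log2 difference of -0.51 (SE 0.13, adjusted p = 0.061, edgeR). IFIH1, which senses long double-stranded RNA, showed the same order at lower counts, with -0.42 (SE 0.19, adjusted p = 0.20, edgeR).

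The transcription factors of the response differed less. IRF1 was at 58.5, 57.1 and 49.8 CPM in the JUN knockout and 65.5, 65.9 and 51.7 CPM in the double knockout, so both 5Z libraries lay below the other 4. Its log2 difference between 5Z and 4A was -0.29 (SE 0.098, adjusted p = 0.11, edgeR). STAT2 and IRF9, the partners in the complex that reads the ISRE, had differences of -0.31 and -0.38, also short of the threshold. Only 34.4% of the STAT2 reads and 45.9% of the IRF9 reads lay on coding transcripts. The STAT2 share varied by library, at 22.8%, 11.8% and 25.9% in the JUN knockout and 57.0%, 51.2% and 37.2% in the double knockout.

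Of the antiviral effectors, CMPK2, a mitochondrial nucleotide kinase, passed the test. CMPK2 was at 11.2, 8.38 and 5.70 CPM in the JUN knockout and 10.6, 10.7 and 5.90 CPM in the double knockout. The 5Z libraries were the lowest of both genotypes, and the 4A and 4C libraries overlapped. Its log2 value fell by 0.91 in 5Z against 4A (SE 0.18, adjusted p = 0.033, edgeR), while 32.6% of its reads lay on coding transcripts and 66.2% on 1 processed transcript without an annotated coding sequence.

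RSAD2, or viperin, whose product blocks viral polymerases, starts on the opposite strand within CMPK2 (chr2:6865806-6898239 on the plus strand, against chr2:6840570-6866635 on the minus strand, GRCh38). RSAD2 was at 2.57, 0.971 and 0.731 CPM in the JUN knockout and 2.13, 1.97 and 1.17 CPM in the double knockout, from 19 to 70 reads a library. Its difference of -1.36 did not pass (SE 0.40, adjusted p = 0.083, edgeR). The library kit keeps the strand, but how strand was used in counting is not stated in the labels, so reads of the shared stretch may not be separated.

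BST2 and ISG20 were the 2 of the 7 tested effectors in this role with differences above 0. BST2 was at 68.8, 125 and 151 CPM in the JUN knockout and 110, 109 and 148 CPM in the double knockout. The 5Z libraries were highest in both genotypes, JUN knockout replicate 1 was the lowest, and the 4A and 4C libraries overlapped. The log2 difference, 5Z minus 4A, was 0.76 (SE 0.21, adjusted p = 0.089, edgeR), and it ran from 0.39 to 1.18 with 1 library left out. DESeq2 called it (adjusted p = 0.0013), as did the edgeR fit without double knockout replicate 1, and 12 of 14 alternatives did not. MX2, a nuclear antiviral GTPase, stayed within 30.9 to 37.9 CPM over all libraries, and MX1, its relative, had 12 to 27 reads.

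**Figure D2:**
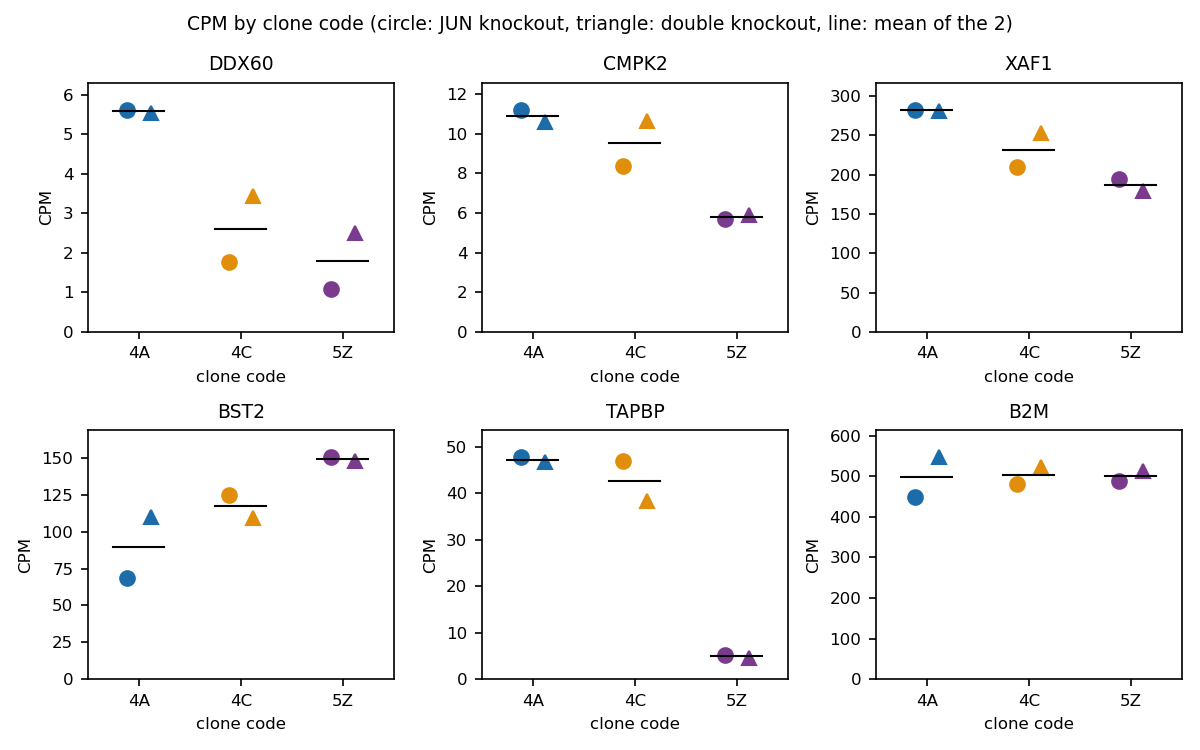
CPM of 6 members (vertical axes, from 0) by clone code (horizontal axes), with circles for JUN knockout, triangles for double knockout and a line at the mean of the 2 libraries. By the mean lines, DDX60, CMPK2 and XAF1 are highest in 4A and lowest in 5Z, and BST2 is highest in 5Z. TAPBP is between 38.2 and 47.8 CPM in 4A and 4C and at about 5 CPM in 5Z. The mean of B2M is level across codes.

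XAF1 and BST2 were the most abundant interferon members by mean TPM, and each was the higher of the pair in 3 of the 6 libraries. XAF1 stood at 283, 210 and 195 CPM in the JUN knockout and 281, 253 and 179 CPM in the double knockout. The codes did not overlap, with 4A highest, 4C between and 5Z lowest. XAF1 fell by 0.59 on the log2 scale in 5Z against 4A (SE 0.12, adjusted p = 0.035, edgeR), with 5054 to 7689 reads behind each library's value. The difference of 4C from 4A was -0.29 (unadjusted p = 0.041) and did not pass the adjusted test.

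In the ISG15 conjugation system, HERC5, the ligase that attaches ISG15 to new proteins, was at 29.3, 14.7 and 18.2 CPM in the JUN knockout and 30.8, 28.6 and 17.2 CPM in the double knockout. The 4C libraries fell on both sides of the 5Z libraries, and 5Z differed from 4A by -0.76 (SE 0.26, adjusted p = 0.13, edgeR). USP18, the protease that removes ISG15 and dampens the receptor, was at 11.5, 7.12 and 7.62 CPM in the JUN knockout and 9.57, 6.33 and 7.63 CPM in the double knockout. Its 4A libraries were the highest of each genotype, with a difference of 4C from 4A of -0.64 (unadjusted p = 0.0052), and near-identical gene copies elsewhere in the genome may share its reads. ISG15 itself differed by -0.037 between 5Z and 4A.

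The 3 IFIT genes tested had 14 to 70 reads per library. IFIT3 was at 2.28, 2.52 and 1.58 CPM in the JUN knockout and 2.37, 1.93 and 0.990 CPM in the double knockout, lowest in the 5Z library of each genotype. IFIT5 was at 1.43, 0.863 and 0.539 CPM and at 1.53, 2.35 and 1.06 CPM, with its highest value in the double knockout library of 4C. Their differences of 5Z from 4A were -0.89 (SE 0.32) and -0.98 (SE 0.43), with edgeR adjusted p of 0.13 and 0.19. OAS1, at 0.551 to 1.37 CPM, was lowest in JUN knockout replicate 1 and highest in double knockout replicate 1, both of clone code 4A.

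TAPBP, or tapasin, which holds empty class I molecules at the peptide transporter, had the largest difference of any member. It was at 47.8, 46.8 and 5.27 CPM in the JUN knockout and 46.7, 38.2 and 4.59 CPM in the double knockout. The 2 libraries of 5Z lay far below the other 4, which lay close together. TAPBP fell by 3.26 on the log2 scale in 5Z against 4A (SE 0.13, adjusted p = 0.00011, edgeR) and by 3.10 against 4C (SE 0.13, adjusted p = 0.00016). It was the only member to pass the test of the 3 codes together (adjusted p = 0.00030), in which 1.75% of all genes passed, and the only member to pass between 5Z and 4C, where 0.324% of all genes passed. No member passed between 4C and 4A, where 0.224% of all genes passed.

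The difference in TAPBP sat in 1 transcript. TAPBP-234, a coding transcript of 3759 bases, was assigned 1149, 1158 and 0 reads in JUN knockout replicates 1 to 3 and 1051, 862 and 0 reads in the double knockout. The other TAPBP transcripts together had 151, 144 and 137 reads in the JUN knockout and 110, 147 and 130 in the double knockout, or 4.44 to 5.59 CPM in all libraries, with no separation of 5Z from the rest. An all-or-none pattern of this kind was rare: of 13709 transcripts with at least 200 reads in each 4A and 4C library, 7 (0.0511%) had fewer than 3 in both 5Z libraries. The reverse pattern held for 10 of 15230 transcripts. The gene lies at chr6:33299694-33314387 (GRCh38, minus strand), in the MHC region, and whether an edited or variant sequence keeps reads from this transcript in 5Z was not tested.

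**Figure D3:**
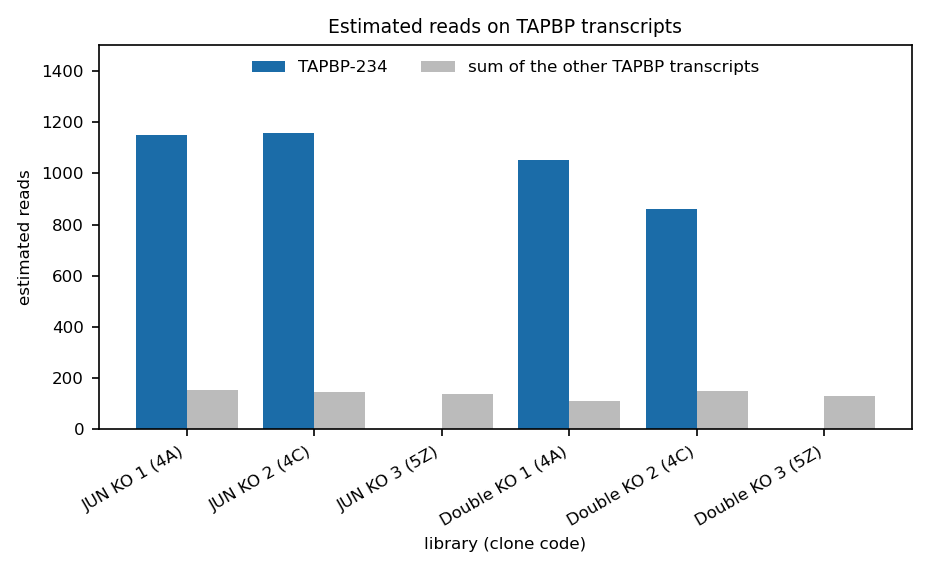
Estimated reads (vertical axis) on the transcript TAPBP-234 and on all other TAPBP transcripts together, in each library (horizontal axis). TAPBP-234 has 862 to 1158 reads in the 4A and 4C libraries and 0 in both 5Z libraries, while the other transcripts hold 110 to 151 reads everywhere.

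None of the remaining class I members passed the test between clone codes. PSMB8 was at 6.80, 6.08 and 4.89 CPM in the JUN knockout and 8.36, 8.49 and 5.83 CPM in the double knockout, with both 5Z libraries below the other 4 and a 5Z minus 4A difference of -0.50 (SE 0.18, adjusted p = 0.12, edgeR). PSMB9, another immunoproteasome subunit with 14 to 31 reads, differed by -0.66 (SE 0.46, adjusted p = 0.39, edgeR). All PSMB8 reads lay on 1 transcript with a retained intron, as given above. B2M was at 448, 482 and 487 CPM in the JUN knockout and 548, 524 and 512 CPM in the double knockout, and its 5Z minus 4A difference was 0.012 (SE 0.098). Of its reads, 17.9% lay on coding transcripts. ERAP2, the peptidase that trims peptides in the endoplasmic reticulum, was at 83.7, 65.8 and 63.4 CPM and at 84.4, 88.1 and 68.7 CPM, with a difference of -0.35 (SE 0.12, adjusted p = 0.12, edgeR). Its 5Z libraries lay below both 4A libraries and overlapped those of 4C. NLRC5 was at 28.7, 32.1 and 26.4 CPM and at 30.3, 32.8 and 26 CPM, lowest in the 5Z library of each genotype, with a difference of -0.17 (SE 0.11). HLA-B, with the limit on its transcripts given above, was at 12.2, 9.75 and 11.2 CPM and at 12.1, 14.4 and 8.48 CPM, with both 5Z libraries below both 4A libraries and the 4C libraries on either side of them.

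The calls for DDX60, CMPK2 and XAF1 depended on both libraries of 5Z and on JUN knockout replicate 1: TAPBP was the only member called between 5Z and 4A when JUN knockout replicate 1, JUN knockout replicate 3 or double knockout replicate 3 was left out, and 9 members were called when double knockout replicate 1 was left out. A correction for transcript length, and a fit on coding transcripts alone, also left TAPBP as the only call, with adjusted p of 0.21 and 0.063 for DDX60, 0.14 and 0.41 for CMPK2 and 0.053 and 0.060 for XAF1. DDX60 was also lost with limma-voom (adjusted p = 0.053) and with no genotype term (adjusted p = 0.073). TAPBP was called in all 14 alternatives.

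Other quantities also differed between the libraries. Summed NK cell markers, nearly all of it NCAM1, stood at 62.8, 30.5 and 33.9 CPM in the JUN knockout and 73.2, 54.6 and 23.4 CPM in the double knockout, with 0 of the 5 at 0 reads in all libraries. Summed monocyte markers ran the other way, at 124, 405 and 391 CPM and at 164, 239 and 465 CPM. Nearly all of that was LYZ, while FCGR3A had 0 reads. The mitochondrial share of reads was 4.36%, 6.03% and 6.16% in the JUN knockout and 4.50%, 4.68% and 5.69% in the double knockout. JUN knockout replicate 1 and double knockout replicates 1 and 2 held the 3 highest NK sums and the 3 lowest monocyte sums. They also held the 3 lowest mitochondrial shares. The 3 highest values of DDX60, XAF1, CMPK2, RIGI, IFIH1, IRF1, IFIT5, HERC5, HERC6, RSAD2, SAMD9L and MX2 were in these libraries as well. Among the class I genes this held for HLA-B, PSMB8, PSMB9, ERAP1 and ERAP2. For the remaining tested members, among them USP18, STAT2, IRF9, IFIT3, MX1, OAS1, IFI6, BST2, B2M and TAPBP, the 3 highest values were not all in these libraries. The share over all genes was not counted. Summed eosinophil markers, nearly all of it RNASE2 and RNASE3, stood at 36.2, 93.1 and 111 CPM and at 81.0, 62.8 and 105 CPM, highest in 5Z in both genotypes. CD79A, a B cell marker, was at 6.10, 2.16 and 2.42 CPM and at 8.12, 4.51 and 2.86 CPM and was called lower in 5Z than in 4A (edgeR adjusted p = 0.029), while MS4A1 had at most 0.036 CPM. Plasmacytoid dendritic cell markers summed to 54.1 to 56.1 CPM in the JUN knockout and 50.1 to 55.9 CPM in the double knockout. T cell, B cell, erythroid and fibroblast or epithelial markers summed to at most 8.97 CPM in any library. The part of these measures in the results was not tested.

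The comparison of genotypes, on which of these genes lose or gain expression when ATF3 is removed from cells that already lack JUN, gave no member past the threshold. With edgeR, 0 of 36 members and 0 of 12954 genes (0.0%) passed at an adjusted p of 0.05. At an unadjusted p of 0.05, 0 members and 753 genes (5.81%) passed, and DESeq2 and limma-voom, which called 71 and 4 genes, also called 0 members. The median log2 difference, double knockout minus JUN knockout, was 0.13 over the 26 interferon genes, with 18 above 0, and 0.15 over the 10 class I genes, with 8 above 0. Over all genes it was 0.0032 and 50.7% were above 0. Groups did not overlap for 2 of the 36 members, B2M and PSMB10, against 12.3% of all genes.

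B2M had the lowest p of any member between genotypes. Its 3 double knockout libraries (512 to 548 CPM) lay above its 3 JUN knockout libraries (448 to 487 CPM), at 528 ± 17.9 and 472 ± 21.1 CPM (mean ± SD, n = 3 libraries each). The log2 difference was 0.16 (SE 0.073, edgeR adjusted p = 0.89). PSMB10 was at 51.6, 58.4 and 59.1 CPM in the JUN knockout and 62.2, 63.7 and 61.5 CPM in the double knockout, a log2 difference of 0.15 (SE 0.083, edgeR adjusted p = 0.90). These groups do not overlap, but neither difference passed over all genes.

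The other members with the lowest p between genotypes were IFIH1, IFIT5, OAS1 and PSMB8. IFIH1 was at 6.98, 5.32 and 4.54 CPM in the JUN knockout and 8.0, 6.86 and 6.82 CPM in the double knockout, and each double knockout library was above the JUN knockout library of its clone code. Its log2 difference was 0.36 (SE 0.20, edgeR adjusted p = 0.90). IFIT5, with 14 to 62 reads, differed by 0.79 (SE 0.44), OAS1, with 15 to 34 reads, by 0.58 (SE 0.33), and PSMB8 by 0.35 (SE 0.21). The groups overlapped for all 4 of these genes.

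**Figure D4:**
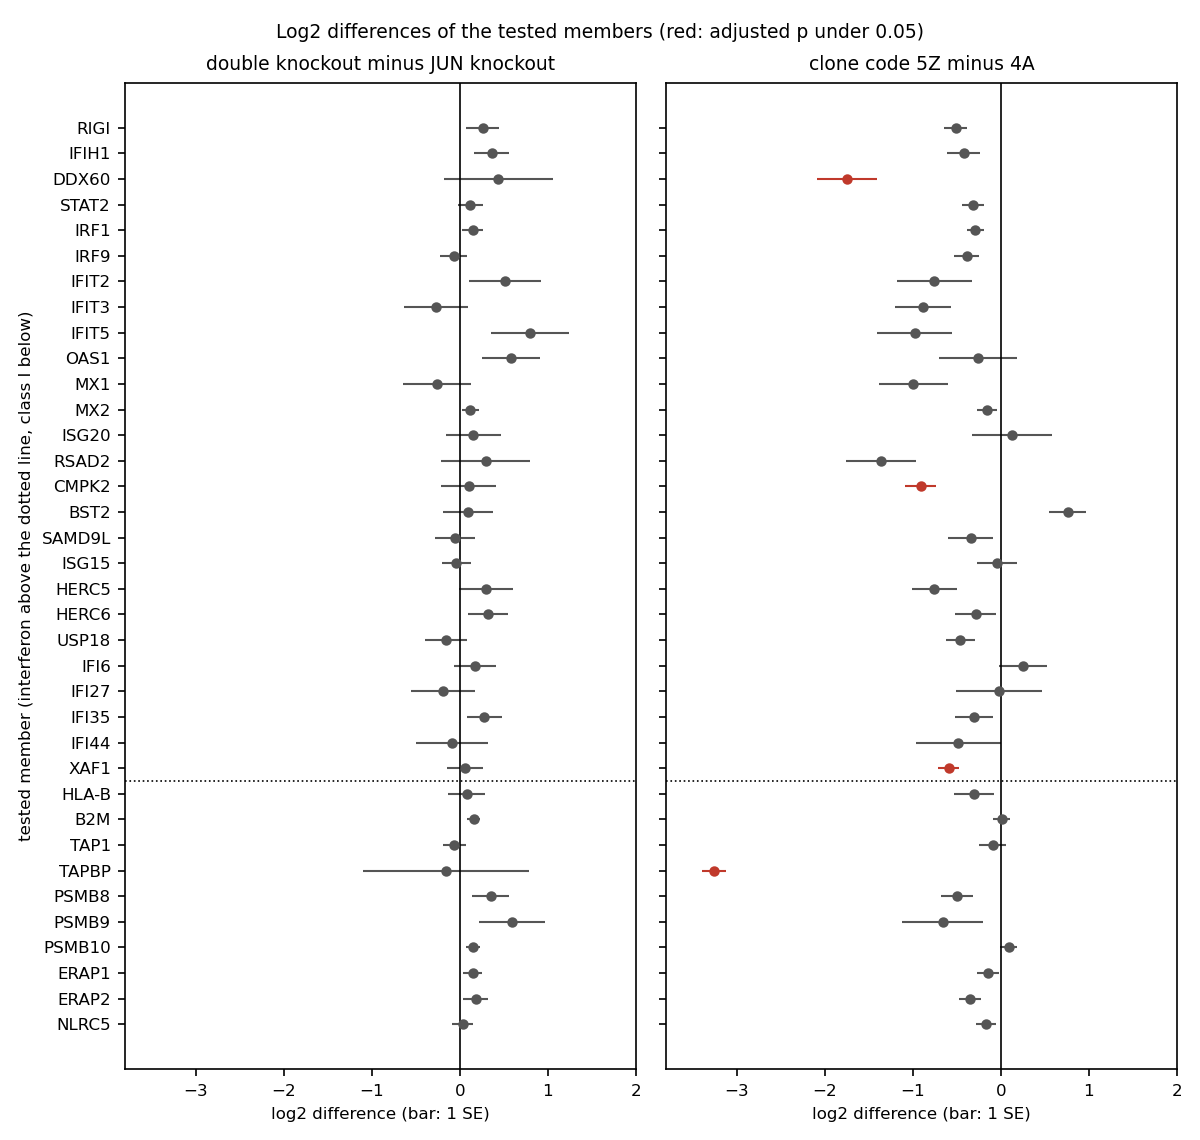
Log2 differences of the 36 tested members (points, with bars of 1 SE) between genotypes (left) and between clone codes 5Z and 4A (right), horizontal axes in log2 units. No member is called between genotypes, and DDX60, CMPK2, XAF1 and TAPBP, in red, are called between codes, all below 0.

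The members called between clone codes overlapped between genotypes. XAF1 differed by 0.054 (SE 0.20), CMPK2 by 0.10 (SE 0.32), DDX60 by 0.44 (SE 0.61) and TAPBP by -0.16 (SE 0.94), and their standard errors carry the spread between codes. By clone code, the median difference between genotypes over the interferon genes was 0.055 in 4A, 0.35 in 4C and -0.011 in 5Z. Over the class I genes it was 0.044 in 4A, 0.27 in 4C and -0.00010 in 5Z. The median was thus largest in the 4C pair. There, 19 of 26 interferon genes, 9 of 10 class I genes and 6453 of 12954 genes tested were higher in the double knockout. By chi-square of read counts per gene tested, the 4C pair differed by 30.4, the 4A pair by 22.3 and the 5Z pair by 14.3. Double knockout replicate 2, of 4C, differed from the 4A libraries by 12.3 (double knockout) and 21.6 (JUN knockout). JUN knockout replicate 2, also of 4C, differed from the 5Z libraries by 13.5 (JUN knockout) and 20.2 (double knockout). The 4C libraries were thus less alike than any of these pairs, 1 being nearer to 4A and 1 nearer to 5Z. The part of this split in the 4C medians was not tested. Double knockout replicate 2, the 4C library, held the highest value of the 6 libraries for 8 of the 10 class I genes and 7 of the 26 interferon genes, against 13.8% of all genes.

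**Figure D5:**
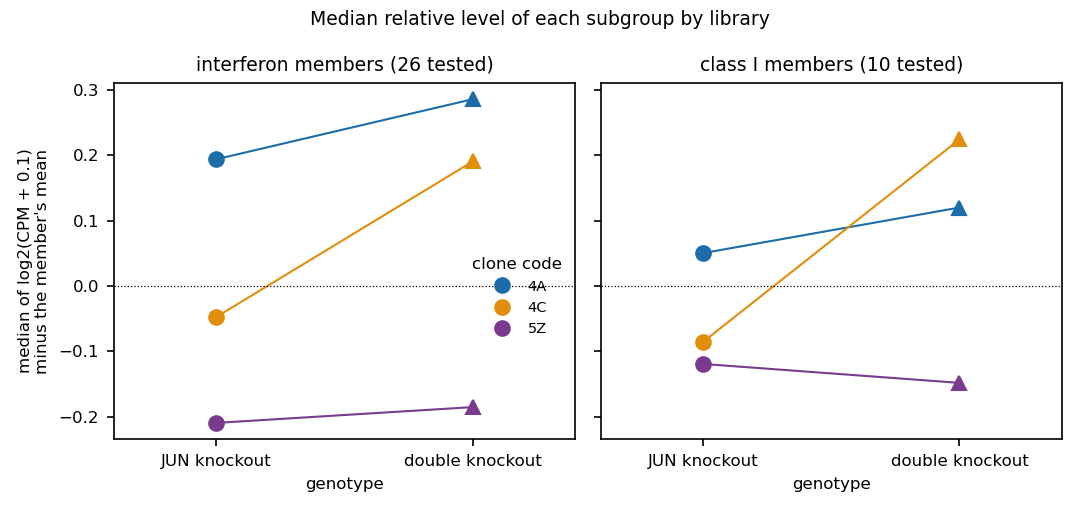
Median over tested members of log2(CPM + 0.1) minus the member's mean (vertical axis) in each library, by genotype (horizontal axis), with lines joining libraries of a clone code. For the interferon genes the 4A libraries are at 0.19 and 0.29, the 4C libraries at -0.048 and 0.19 and the 5Z libraries at -0.21 and -0.19, and the class I genes are also higher in the double knockout within 4C.

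Genes around the members were read in lists taken from the known pathway. Their counts of calls between 5Z and 4A stand against 5.96% called among all genes, and with 1 to 3 calls a list none is read as a result about the list. Of 8 tested interferon receptors and kinases, 0 were called in any comparison, and TYK2 stayed within 210 to 237 CPM. Of 18 tested sensing genes and adaptors, 2 were called between 5Z and 4A. IRF8, a factor of myeloid development and interferon induction, was higher in 5Z, at 131, 223 and 252 CPM in the JUN knockout and 169, 209 and 255 CPM in the double knockout (log2 difference 0.76, SE 0.13, edgeR adjusted p = 0.023). TLR9, the sensor of unmethylated DNA, was lower, with 42, 5 and 0 reads in the JUN knockout and 62, 24 and 0 in the double knockout. TRIM25, the ligase that activates RIG-I and the most abundant of this list, reached 378 CPM in JUN knockout replicate 1 and was not called.

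Among 34 other interferon-stimulated genes tested, 3 were called between 5Z and 4A, all lower in 5Z, and their median difference was -0.14, with 22 of 34 below 0. APOL6, an apolipoprotein induced by interferon gamma, was at 218, 171 and 123 CPM in the JUN knockout and 202, 213 and 131 CPM in the double knockout (log2 difference -0.73, SE 0.12, edgeR adjusted p = 0.023). PLSCR1 and DTX3L fell by 0.81 and 0.57 on the log2 scale. SAMHD1, the most abundant of this list, differed by 0.011. In all 3 called genes both 5Z libraries lay below both 4A libraries, as for XAF1 and for 28.6% of all genes. This order follows closely from being called lower and is no further result.

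Of 14 other class I pathway genes tested, RFXAP, a subunit of the factor that activates MHC promoters, was called, and fell by 0.62 in 5Z against 4A (SE 0.12, edgeR adjusted p = 0.031). The median of that list was 0.18, with 8 of 14 above 0, opposite in sign to the class I members. CALR, the chaperone that folds class I chains, was at 334, 534 and 719 CPM in the JUN knockout and 479, 439 and 726 CPM in the double knockout, highest in 5Z, with a difference of 0.84 (edgeR adjusted p = 0.055). Of 6 negative regulators and 4 class II genes tested, 0 were called between these codes. The most abundant of these were PTPN6, at 301 to 369 CPM, and CD74, at 341 to 481 CPM, and both overlapped between 5Z and 4A. Between genotypes, 0 genes of these lists were called.

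Within the interferon genes, the differences between 5Z and 4A are given by ISRE-like match, and whether they depend on it was not tested. IFIT2, MX2 and USP18 were tested for expression but had no promoter sequence and are left out. The 12 tested members with a match had a median of -0.45, with 9 below 0, and the 11 without had a median of -0.34, with 11 below 0. DDX60, with 2 matches, and XAF1, with none, both fell in 5Z, and BST2, with 2, had the highest difference of all tested members. The 7 class I genes with a match were B2M, TAP1, TAPBP, PSMB10 and ERAP1, which were tested, and TAP2 and HLA-F, which were not, and TAPBP was the only one called.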

How the data were processed

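RNA-seq of 6 EoL-1 libraries was used. FastQC 0.11.9, Salmon 1.6.0 and hg38 are named in the submitters' processing notes, and the columns are those of Salmon, which shares out reads that fit several transcripts. Per the file headers, the deposited files give for each of 177456 transcripts an estimated count, a TPM value and an effective length, as made by the authors. The annotation release the authors used is not given in the sources used here. Per the labels, polyA RNA went into a stranded kit.

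Transcripts were assigned to genes of GENCODE 29 by Ensembl identifier without version (167027, or 94.1%, matched), older symbols were updated, and the estimated counts of a gene's transcripts were added up and rounded. CPM uses TMM-scaled library sizes. TPM was summed per gene without change. Genes were tested with edgeR 4.0.16 in R 4.3.3 (filterByExpr, TMM, robust quasi-likelihood F test, two-sided, Benjamini-Hochberg adjustment over all 12954 genes tested at 0.05). Genotypes were compared with genotype as the single term. Clone codes were compared through the replicate numbers with genotype beside them. SE is the log2 difference divided by the square root of F. Relative levels use log2(CPM + 0.1). Alternatives were the replicate block, no genotype term, RLE scaling, 2 other filters (none, and 1 CPM in 3 libraries), DESeq2 1.42.0, limma-voom (limma 3.58.1), an offset for transcript length and leaving out each library. A fit on coding transcripts alone was added after seeing the data. Fits were tested on simulated data.

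The members and lists were chosen with earlier results of these data known, so lists are described by counts and medians with no test. Values in every library were given for the most abundant member of each role, the 6 members with the lowest p for genotype and for clone code, and every member called. RSAD2, MX1, MX2, STAT2, IRF9 and ISG15 were added after their values were seen. Total estimated reads of 26146998 to 29567970 set the precision, which for members under 100 reads is low. A listed marker gene is not reported here.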

Additional observations from a re-analysis of the deposited data

Results flagged for a closer look

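The difference between genotypes did not run alike in the 3 clone codes. Over the 26 tested interferon genes the median log2 difference, double knockout minus JUN knockout, was 0.0546 in 4A, 0.3503 in 4C and -0.0108 in 5Z. Over the 10 tested class I genes it was 0.0442 in 4A, 0.2656 in 4C and -0.0001 in 5Z. The 4A and 4C pairs lay above 0 and the 5Z pair just below, with 1 library of each genotype per code, so the difference between codes was not tested.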

How the results depend on the processing

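None of the 4 members called between 5Z and 4A changed sign under the alternatives run, which were not computed for single genes outside the members. Between genotypes, 0 members were called under every alternative, while the count over all genes (0) was 1 with no low-count filter, 71 with DESeq2 and 4 with limma-voom. With the replicate block, 0 genes and 0 members were called, and the medians were 0.14 for interferon genes and 0.15 for class I genes. Same-numbered libraries of the genotypes correlated by 0.335, 0.0978 and 0.426 in their deviations from the group means, and 2 of the 3 exceeded all correlations with other numbers, while double knockout replicate 2 correlated more with JUN knockout replicate 1 (0.123). The pairing is thus not settled by these data.

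For the 3 clone codes together, the count over all genes (227) was 686 with no filter, 905 with DESeq2, 61 with the length offset and 80 on coding transcripts, and 141 to 2634 with 1 library left out, lowest without double knockout replicate 3 and highest without double knockout replicate 1. Members called there (1) were 4 with no filter, 4 with DESeq2 and 1 to 8 with 1 library left out. Members called between 5Z and 4A (4) were 1 with the length offset, 1 on coding transcripts and 1 to 9 with 1 library left out. They numbered 0 to 2 between 4C and 4A and 1 to 3 between 5Z and 4C with 1 library left out. The interferon median between 5Z and 4A (-0.40) was -0.39 with no genotype term, -0.45 with no filter, -0.42 with the 1 CPM filter, -0.39 with limma-voom, -0.52 on coding transcripts and -0.54 to -0.38 with 1 library left out. The class I median (-0.24) was -0.32 with the length offset and -0.32 to -0.11 with 1 library left out. The cause was not tested, apart from the fewer genes or libraries that some of these fits hold.

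With 2 libraries per code and 3 per genotype, small differences of members with few reads were not detectable at this depth.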
